A study of Homo sapiens with 6 samples.

Results

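The 9 mature miRNAs described here belong to 2 groups known as growth-restraining miRNAs: both arms of miR-34a, miR-34b and miR-34c, and hsa-miR-192-5p, hsa-miR-194-5p and hsa-miR-215-5p. They were taken by name from a table of 2656 human miRNAs, in which all 9 have a row. Small RNA was sequenced from K562, an erythroleukaemia cell line from a patient with chronic myeloid leukaemia, before and after it was made resistant to azacitidine by months of growth in rising amounts of the drug, a cytosine nucleoside mimic that depletes DNA methyltransferases. The parental cells are called sensitive here and the selected ones resistant. Each form has 3 libraries that the labels call biological replicates, from cells kept in RPMI medium with serum. The labels name no separate selections of resistant cells, so p-values cover the spread between libraries. The library names of both forms end in the letters NT, which the labels do not explain. The labels do not say if cells were harvested with drug present.

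The miR-34, miR-192, miR-194 and miR-215 loci are known from other cells to be raised when DNA is damaged. Whether they respond so in K562 was not tested here. miR-34 miRNAs repress cell cycle and survival transcripts such as CDK4, CDK6, MET and BCL2. Both groups also have uses outside the damage response: miR-192, miR-194 and miR-215 are abundant in liver, gut and kidney epithelium, and miR-34b, miR-34c and the related miR-449 miRNAs are abundant in ciliated epithelium and testis. Methylation of the miR-34a and miR-34b/c promoters is common in tumours, which is why these loci are of interest in cells selected with a drug that lowers DNA methylation.

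The sequences show which members can act on the same targets and which can be mistaken for each other. Each is the mature RNA from 5′ to 3′ from RefSeq (GRCh38.p14), which matched 8 of the 9 members. Capitals mark the seed, bases 2 to 8, which does most of the pairing with a target.
hsa-miR-34a-5p: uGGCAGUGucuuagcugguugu
hsa-miR-449a: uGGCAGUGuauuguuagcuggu
hsa-miR-449b-5p: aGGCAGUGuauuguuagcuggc
hsa-miR-34b-5p: uAGGCAGUgucauuagcugauug
hsa-miR-449c-5p: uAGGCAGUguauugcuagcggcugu
hsa-miR-192-5p: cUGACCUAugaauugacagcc
hsa-miR-215-5p: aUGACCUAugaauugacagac
hsa-miR-194-5p: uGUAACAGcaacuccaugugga
hsa-miR-194-3p: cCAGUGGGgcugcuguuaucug

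miR-34a-5p shares the seed GGCAGUG with miR-449a and miR-449b-5p, while miR-34b-5p and miR-449c-5p start 1 base earlier on the same motif and have the seed AGGCAGU. miR-192-5p and miR-215-5p share the seed UGACCUA and differ over their 21 bases only by C1A and C20A, counted from the 5′ end with the base of miR-192-5p first. How the authors counted reads that match several miRNAs is not given in the sources used here, so counts of miR-215-5p, the rarer of the pair, are the less certain.

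The 9 members come from 7 hairpins (GRCh38, GENCODE v29). MIR34A lies on chromosome 1 at 9151668 to 9151777 on the minus strand, in an exon of its host transcript MIR34AHG. MIR34B and MIR34C lie on the plus strand of chromosome 11 at 111512938 to 111513021 and 111513439 to 111513515, with 417 bases between them, within the RefSeq transcript MIR34BHG. MIR192 (64891137 to 64891246) and MIR194-2 (64891355 to 64891439) lie 108 bases apart on the minus strand of chromosome 11, in exons of MIR194-2HG. MIR215 (220117853 to 220117962) and MIR194-1 (220118157 to 220118241) lie on the minus strand of chromosome 1, within an intron of IARS2, which is on the plus strand. miR-194-5p is made by both pairs with the same sequence, so its reads cannot be assigned to a locus. miR-192-5p, miR-215-5p and miR-194-3p each come from 1 hairpin.

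Library totals ran from 3291500 to 12563945 counts, and 768 of the 2656 miRNAs had enough counts to be tested, among them 5 of the 9 members. Values are CPM, counts divided by the library's total after scaling with trimmed mean of M values (TMM) factors, unless stated, and the 8 members with a sequence are 21 to 23 bases long, so no scaling for length was applied. Resistant replicate 3 stood apart before any comparison. Its log2 CPM correlated with the other resistant libraries at r = 0.864 and 0.875 across miRNAs. The r of the remaining resistant pair was 0.995, and pairs of sensitive libraries had 0.978 to 0.992. Each fold change of a member is therefore given with and without it. Markers of the line's lineages were present: 4 erythroid miRNAs (miR-451a, both arms of miR-144 and miR-486-5p) summed to 5206 to 7105 CPM in sensitive and 10390 to 63504 CPM in resistant libraries, and both arms of the myeloid miR-223 to 2417 to 3386 and 301 to 1534 CPM. Most of the erythroid sum was miR-486-5p, with a mean of 5677 ± 813 CPM for sensitive and 28668 ± 30035 CPM for resistant libraries (SD, n = 3 each) and 63289 CPM in resistant replicate 3. The means of miR-451a (272 and 141 CPM) and miR-144-3p (229 and 172 CPM) were lower in resistant libraries, and that of miR-144-5p was nearly equal (290.0 and 289.5 CPM). With all 6 libraries 0 of the 4 erythroid miRNAs and 0 of the 2 miR-223 arms passed the edgeR test (adjusted p under 0.05). Without resistant replicate 3, 1 of the 4 was called higher and 1 of the 2 lower, against 28.1% of all tested miRNAs called. Fewer cells of a type and less RNA per cell cannot be told apart in such bulk libraries, and the part of these markers in the members' values was not tested.

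No member was called higher or lower in resistant cells. With all 6 libraries 0 of the 5 tested members passed an edgeR adjusted p of 0.05, against 4.17% of all tested miRNAs (32 of 768). Without resistant replicate 3, 0 of 6 tested members passed, against 28.1% of all tested (231 of 822). An unadjusted edgeR p under 0.05 was found for 0 members in both fits, against 26.7% of all tested with all libraries and 38.4% without that library. With all libraries DESeq2 called 0 members and 19.4% of all tested, and limma-voom 0 members and 5.21%. By CPM, 0 of the 5 tested members had groups without overlap when all libraries were used, against 41.8% of all tested miRNAs. When resistant replicate 3 was left out this was 1 of 6, miR-34a-5p, against 53.3% of all tested. The median log2 fold change (resistant over sensitive) was -0.38 over the 5 members and -0.11 over all tested. With that library left out it was 0.0035 over 6 members and 0.04 over all tested.

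**Figure D1:**
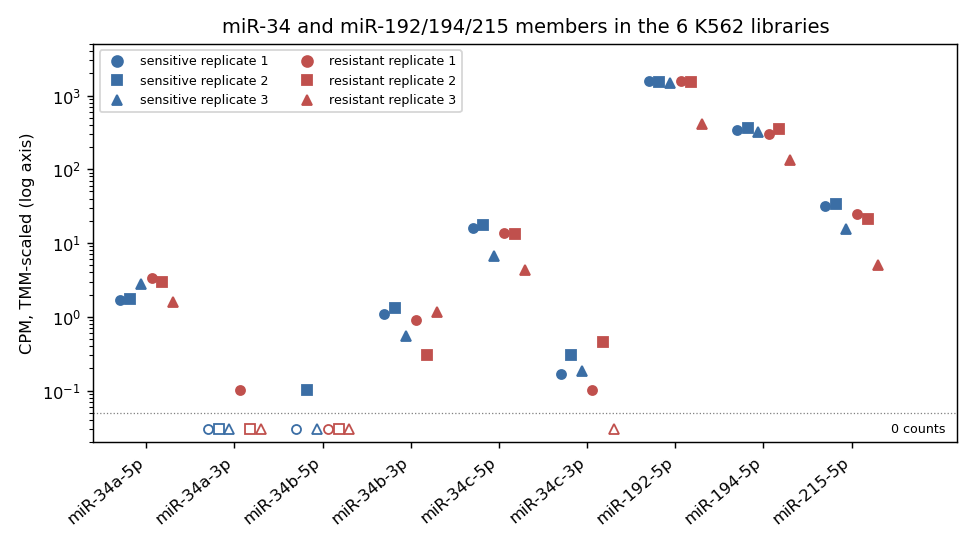
CPM of each member (TMM-scaled, log axis) in each of the 6 libraries, blue for sensitive and red for resistant, with a symbol for each replicate number. Open symbols below the dotted line are libraries with 0 counts. miR-192-5p and miR-194-5p are the abundant members, and resistant replicate 3 is the lowest library for these and for miR-215-5p, miR-34c-5p and miR-34a-5p.

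miR-192-5p was by far the most abundant member, which is known to repress cell cycle transcripts, as is miR-215-5p. It had 18677, 15004 and 7901 counts in sensitive replicates 1 to 3 (1554, 1532 and 1462 CPM) and 15272, 20255 and 1058 counts in resistant replicates 1 to 3 (1554, 1528 and 416 CPM). Resistant replicates 1 and 2 lay inside the sensitive range, and resistant replicate 3 lay far under all other libraries. By raw counts it ranked between the 68th and the 78th most abundant miRNA in those 5 libraries and was the 130th in resistant replicate 3. The log2 fold change was -0.38 (SE 0.53, 95% interval -1.60 to 0.84, edgeR adjusted p = 0.656). Leaving out that library gave 0.08 (SE 0.19, 95% interval -0.33 to 0.48, edgeR adjusted p = 0.807). That interval is the narrowest of the 6 tested members.

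miR-194-5p, known in liver and gut epithelium and for repressing migration transcripts, was the next most abundant. It was at 339, 367 and 322 CPM in sensitive replicates 1 to 3 and at 301, 353 and 134 CPM in resistant replicates 1 to 3. Again only resistant replicate 3 was clearly apart. The log2 fold change was -0.38 (SE 0.45, 95% interval -1.42 to 0.65, edgeR adjusted p = 0.602) and, without that library, -0.01 (SE 0.21, 95% interval -0.47 to 0.44, edgeR adjusted p = 0.980). The ratio of miR-192-5p to miR-194-5p counts, which does not depend on how libraries are scaled, was 4.58, 4.17 and 4.54 in the sensitive and 5.15, 4.33 and 3.10 in the resistant libraries. These ranges overlap.

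miR-215-5p, from the chromosome 1 pair, was at 31.6, 33.9 and 15.7 CPM in sensitive and 25.1, 20.9 and 5.11 CPM in resistant libraries, the last from 13 counts. Sensitive replicate 3 was below resistant replicates 1 and 2, so the groups overlapped with and without resistant replicate 3. The log2 fold change was -0.65 (SE 0.62, edgeR adjusted p = 0.523), and -0.19 (SE 0.32, edgeR adjusted p = 0.725) without it. miR-192-5p had 49.1, 45.2 and 93.0 times the counts of miR-215-5p in the sensitive libraries and 61.8, 73.1 and 81.4 times in the resistant ones, ranges that overlap. The RNA with their common seed was thus nearly all miR-192-5p in both forms. Both together came to 1543 ± 57.8 CPM (SD, n = 3) before selection and to 1183 ± 660 CPM (SD, n = 3) after it, with 1579, 1549 and 421 CPM in resistant replicates 1, 2 and 3.

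The miR-34 family was scarce in both forms. All 6 members together came to 19.1, 21.1 and 10.2 CPM in sensitive and 18.1, 16.8 and 7.07 CPM in resistant libraries. miR-34c-5p made up most of this, and miR-34a-5p, in many tissues the main family member, was rarer. In each of the 6 libraries the order of the tested members was miR-192-5p, miR-194-5p, miR-215-5p, miR-34c-5p and miR-34a-5p. The neighbours miR-215-5p (17.0 ± 10.6 CPM) and miR-34c-5p (10.4 ± 5.24 CPM) had spreads that overlap in resistant libraries (SD, n = 3 each). These SDs include the drop of both in resistant replicate 3, and miR-215-5p was the higher of the pair in each library.

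miR-34c-5p had 195, 173 and 36 counts in sensitive replicates 1 to 3 (16.2, 17.7 and 6.66 CPM) and 134, 174 and 11 counts in resistant replicates 1 to 3 (13.6, 13.1 and 4.32 CPM). The third library of each form was the low one, and the other resistant libraries fell between the sensitive values. The log2 fold change was -0.36 (SE 0.58, 95% interval -1.69 to 0.97, edgeR adjusted p = 0.693) and 0.02 (SE 0.36, 95% interval -0.76 to 0.80, edgeR adjusted p = 0.981) without resistant replicate 3. miR-34c-3p, the other arm, had 6 counts over the sensitive and 7 over the resistant group (exact 95% Poisson intervals 2.20 to 13.1 and 2.81 to 14.4, for counting error only), too few to test. The 5p arm held 98.5% of the counts of both arms in sensitive and 97.9% in resistant cells (exact binomial 95% intervals 96.8% to 99.5% and 95.6% to 99.1%, pooled over libraries), and 97.8% in resistant replicates 1 and 2.

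miR-34a-5p had 20, 17 and 15 counts in sensitive replicates 1 to 3 (1.66, 1.74 and 2.77 CPM) and 33, 39 and 4 counts in resistant replicates 1 to 3 (3.36, 2.94 and 1.57 CPM). Resistant replicates 1 and 2 lay above all sensitive libraries and resistant replicate 3 below them. The log2 fold change was 0.43 (SE 0.48, 95% interval -0.69 to 1.54, edgeR adjusted p = 0.592). Leaving that library out gave 0.72 (SE 0.38, 95% interval -0.11 to 1.54, edgeR adjusted p = 0.185). These values rest on 4 to 39 counts a library. miR-34a-3p had 0 counts in the sensitive libraries and 1 count in resistant replicate 1. The 0 counts allow up to 0.130 CPM over the sensitive group, unscaled (exact 95% Poisson limit, 3.69 counts of 28421963).

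From MIR34B, the 3p arm was the one seen. miR-34b-3p had 13, 13 and 3 counts in sensitive and 9, 4 and 3 counts in resistant libraries, in sum 29 and 16 (exact 95% Poisson intervals 19.4 to 41.6 and 9.15 to 26.0). Those intervals overlap, but they are for counting error only and take no account of library totals. By CPM, which does, the libraries of both groups overlapped too. miR-34b-3p was tested only where the filter let it pass or where no filter was used. With resistant replicate 3 left out its log2 fold change was -0.79 (SE 0.62, edgeR adjusted p = 0.392). miR-34b-5p had 1 count in the sensitive and 0 in the resistant group. The 0 counts allow up to 0.166 CPM over the resistant group, unscaled (exact 95% Poisson limit, 3.69 counts of 22242200). MIR34B and MIR34C are known to be made from 1 primary transcript. miR-34c-5p had 404 counts in the sensitive and 319 in the resistant group, and both arms of MIR34B together had 30 and 16.

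**Figure D2:**
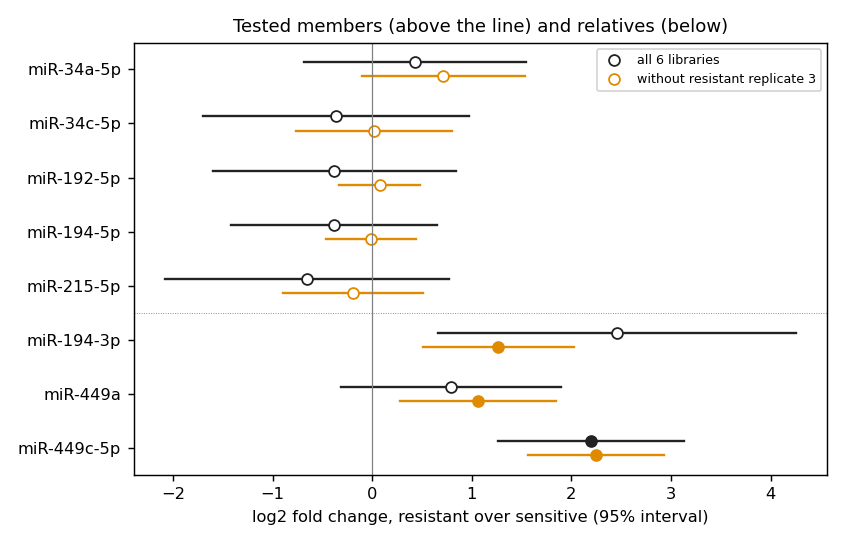
Log2 fold changes, resistant over sensitive, with 95% intervals from edgeR, with all 6 libraries (black) and without resistant replicate 3 (orange), for the 5 tested members above the dotted line and for the other arm of miR-194 and 2 tested miR-449 miRNAs below it. Filled points passed an adjusted p of 0.05. The intervals of all 5 members cross 0, those of miR-192-5p and miR-194-5p being the narrowest without that library, and miR-449c-5p passed with and without that library.

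The other arms of the miR-192, miR-194 and miR-215 hairpins tell the loci apart where they have counts. miR-192-3p had 17 counts in the sensitive and 10 in the resistant group, and miR-215-3p had 3 in each, too few to test. miR-194-3p, made by MIR194-2 beside MIR192, had 19, 18 and 12 counts in sensitive replicates 1 to 3 (1.58, 1.84 and 2.22 CPM) and 45, 53 and 60 in resistant replicates 1 to 3 (4.58, 4.0 and 23.6 CPM). All resistant libraries were above all sensitive ones. With 6 libraries the log2 fold change of 2.46 (SE 0.78) did not pass (edgeR adjusted p = 0.130). Fitted without resistant replicate 3, miR-194-3p rose by 1.27 on the log2 scale (SE 0.35, edgeR adjusted p = 0.0171). That fit called 28.1% of all tested miRNAs.

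The balance of the miR-194 arms differed between libraries. miR-194-3p made up 0.464%, 0.498% and 0.685% of the counts of both arms in sensitive replicates 1 to 3 and 1.5%, 1.12% and 15.0% in resistant replicates 1 to 3. The exact binomial 95% intervals were 0.280% to 0.724%, 0.295% to 0.786% and 0.354% to 1.19% for the sensitive libraries. For the resistant ones they were 1.09% to 2.0%, 0.840% to 1.46% and 11.6% to 18.8%. The share was thus higher in 3 of 3 resistant libraries, although the intervals of sensitive replicate 3 and of resistant replicates 1 and 2 overlap. The mean share was 0.549 ± 0.119% in sensitive and 5.86 ± 7.89% in resistant libraries (n = 3 each, SD), and 1.31% over resistant replicates 1 and 2. The difference of 5.31 percentage points was 0.759 without resistant replicate 3. It is a description with no test.

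**Figure D3:**
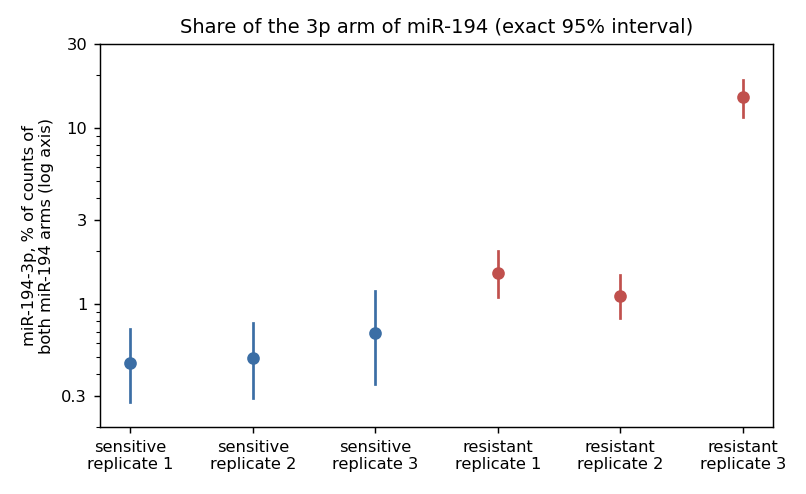
Share of miR-194-3p in the counts of both miR-194 arms in each library, in percent on a log axis, with exact binomial 95% intervals (blue sensitive, red resistant). The sensitive libraries lie between 0.464% and 0.685%, resistant replicates 1 and 2 at 1.5% and 1.12%, and resistant replicate 3 at 15.0%.

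The deviation of resistant replicate 3 moved with base composition. The members with a RefSeq sequence that were tested have GC contents of 50.0% (miR-34a-5p), 47.6% (miR-192-5p), 45.5% (miR-194-5p) and 38.1% (miR-215-5p), and miR-194-3p has 59.1%. The log2 CPM of resistant replicate 3 differed from the mean of the other resistant libraries by -0.91, -1.89, -1.28 and -2.12 for those 4 members, by -1.58 for miR-34c-5p and by 2.40 for miR-194-3p. Across 677 tested miRNAs with a sequence, the median of this difference was -2.22 where GC content was under 40%, -0.95 from 40% to under 50%, 0.56 from 50% to under 60% and 1.96 at 60% or more. Spearman's rho between GC content and the difference was 0.715 across miRNAs of this 1 library, which are not independent. miR-192-5p, miR-194-5p and miR-215-5p lie in the GC ranges with a negative median, while miR-34a-5p, also low in this library, lies in the range with a median of 0.56. The part of GC content in the members' values was not tested beyond a fit with a correction for it, in which 0 of 4 members and 10.5% of all tested were called (71 of 677) and miR-194-3p had a log2 fold change of 1.5 (SE 0.50, edgeR adjusted p = 0.0945).

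**Figure D4:**
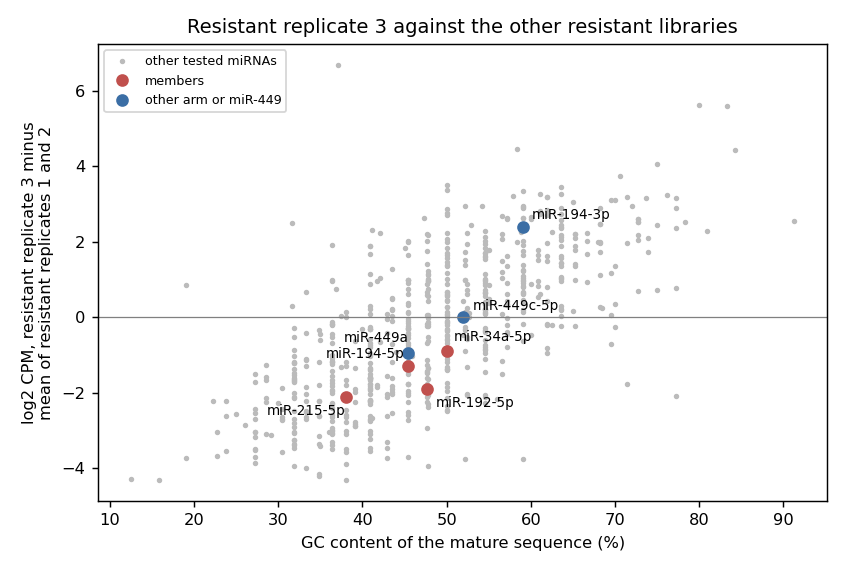
Each point is 1 of 677 tested miRNAs: the GC content of its mature sequence in percent against the log2 CPM of resistant replicate 3 minus the mean of resistant replicates 1 and 2. The 4 members shown in red lie below 0, miR-194-3p lies at 2.40, and the difference rises with GC content (Spearman's rho 0.715).

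The miR-449 miRNAs, which share the miR-34 seeds, are made from an intron of CDC20B on chromosome 5 and are known to be raised by E2F1. Of the 2 that were tested with all libraries, 1 was called higher, against 4.17% of all tested miRNAs called in either direction. miR-449c-5p was at 1.91, 1.74 and 1.66 CPM in sensitive replicates 1 to 3 (23, 17 and 9 counts) and at 7.84, 8.52 and 8.25 CPM in resistant replicates 1 to 3 (77, 113 and 21 counts). The groups are far apart, and resistant replicate 3 was with the other resistant libraries. The log2 fold change was 2.20 (SE 0.41, edgeR adjusted p = 0.0255), and 2.24 (SE 0.31, edgeR adjusted p = 0.00031) without resistant replicate 3. Leaving out any of the other 5 libraries kept the size (2.22 to 2.40) but not the call (edgeR adjusted p = 0.0537 to 0.206). Over its 13 alternatives the adjusted p ran from 1.1e-05 to 0.206.

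miR-449a had 29, 17 and 10 counts in sensitive and 33, 63 and 5 in resistant libraries. Its log2 fold change was 0.79 (SE 0.48, edgeR adjusted p = 0.307). When resistant replicate 3 was left out, miR-449a rose by 1.06 on the log2 scale (SE 0.36, edgeR adjusted p = 0.0448). That fit called 28.1% of all tested miRNAs. miR-449b-5p had 16 counts in the sensitive and 38 in the resistant group. It did not pass the filter with all libraries, where its log2 fold change with no filter was 1.24 (SE 0.83, edgeR adjusted p = 0.428). Without resistant replicate 3 it passed the filter and had 1.54 (SE 0.54, edgeR adjusted p = 0.0520).

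Set side by side, the miR-34 5p arms and the miR-449 miRNAs made up the RNA with miR-34-type seeds in different proportions in the 6 libraries. The miR-34 5p arms summed to 15.6 ± 5.41 CPM in sensitive and 12.98 ± 6.16 CPM in resistant libraries, and the 3 miR-449 miRNAs to 4.29 ± 0.653 and 12.8 ± 2.01 CPM (SD, n = 3 each). The log2 ratio of the mean sums was -0.27 for the miR-34 5p arms and 1.58 for miR-449, and without resistant replicate 3 it was 0.08 and 1.69. The counts of miR-34c-5p were 8.48, 10.2 and 4.0 times those of miR-449c-5p in sensitive and 1.74, 1.54 and 0.524 times in resistant libraries. These within-library ratios do not overlap between the forms. With 3 libraries against 3, an exact two-sided permutation test of a single value cannot go below 0.1, so none was run.

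**Figure D5:**
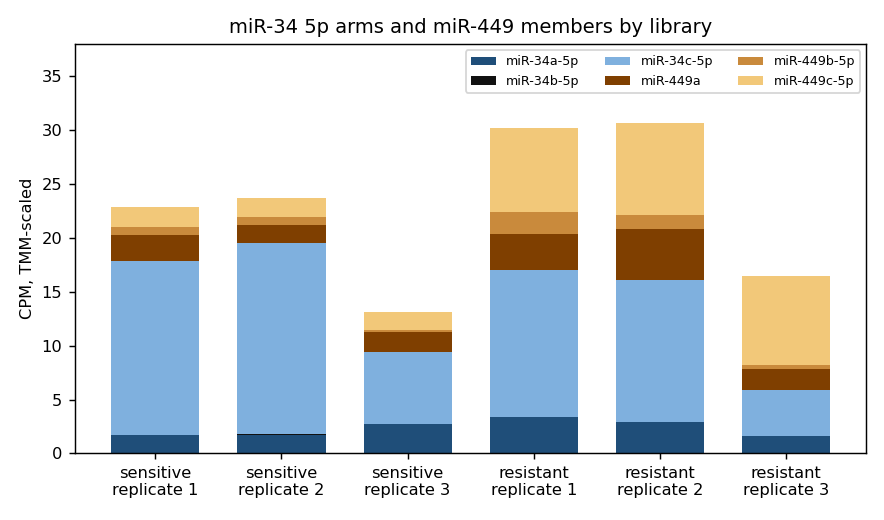
Stacked CPM (TMM-scaled, axis from 0) of the miR-34 5p arms (blue and black) and the miR-449 miRNAs (browns) in each library. The miR-449 part is 3.70 to 4.99 CPM in the sensitive and 10.6 to 14.6 CPM in the resistant libraries, while the miR-34 part overlaps between the forms.

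The listed liver and epithelial markers were below miR-192-5p in all 6 libraries. They do not cover each epithelium in which miR-192, miR-194 and miR-215 are abundant. The liver miRNA miR-122-5p was at 2.96 to 6.32 CPM in sensitive and 2.41 to 5.70 CPM in resistant libraries. The 6 epithelial miRNAs listed (miR-200a-3p, miR-200b-3p, miR-429, miR-375-3p, miR-203a-3p and miR-205-5p) summed to 84.0 to 147.5 CPM in sensitive and 71.8 to 107.6 CPM in resistant libraries, mostly miR-375-3p, and 0 of the 4 tested were called with all libraries, while 1, miR-200a-3p, was called lower without resistant replicate 3 (edgeR adjusted p = 0.0139). miR-200c-3p, a relative of miR-200b-3p outside that list and named after its values were seen, rose from 91.5 ± 11.2 to 351 ± 76.2 CPM (SD, n = 3 each, edgeR adjusted p = 0.0355), a call that was lost (adjusted p = 0.0925 to 0.240) when sensitive replicate 1, 2 or 3 or resistant replicate 1 was left out. In resistant replicate 3 it was at 437 CPM, above miR-192-5p. miR-141-3p, also outside that list, had means of 4.06 ± 0.305 CPM in sensitive and 6.03 ± 4.90 CPM in resistant libraries (SD, n = 3 each). Over resistant replicates 1 and 2 its mean was 8.65 CPM, and in resistant replicate 3 it was at 0.785 CPM. Of the listed miRNAs, miR-205-5p had 0 counts in the sensitive group and 3 in the resistant group. miR-192-5p had 88.2 to 633 times the counts of miR-122-5p over the 6 libraries. Their part in the members' levels was not tested.

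Across the 6 libraries, the profile of miR-192-5p was most like those of miR-135b-5p (Pearson r = 0.998), miR-1278 (0.998) and miR-548n (0.997), among 468 tested miRNAs whose mean was 10 CPM or more. Its r with miR-194-5p was 0.983 and with miR-215-5p 0.927. With miR-194-3p it was -0.908. The profile of miR-34c-5p was most like those of miR-548ad-5p (0.993), miR-152-3p (0.982) and the erythroid miR-144-3p (0.980), and its r with miR-34a-5p was 0.126. These are descriptions over 6 points that include resistant replicate 3, too few to repeat without it, and carry no p. The median r over the 468 was 0.494 for miR-192-5p, with 76 above 0.95, and 0.352 for miR-34c-5p, with 8 above 0.95.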

How the data were processed

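The authors deposited read counts per mature miRNA, whole numbers with no normalization found in them. The submitters' processing notes name GRCh38. For the aligner, the counting program and the miRBase release, a name is not given in the sources used here. The labels' protocols name NEBNext small RNA preparation and NovaSeq sequencing. Ligation preferences enter the counts, and no molecular identifiers are stated. Poisson and binomial intervals cover counting error only, while the intervals of fold changes include the spread between libraries.

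Counts were analysed with edgeR 4.0.16 in R 4.3.3: filterByExpr (minimum count 10, minimum total 15), TMM factors, and the quasi-likelihood F test of resistant against sensitive libraries with no covariates, adjusted by Benjamini-Hochberg over 768 miRNAs (threshold 0.05). SE was taken from the fold change and F (size over root F). Log2 CPM used a prior count of 2. The procedure was tested on simulated data whose spread was estimated without resistant replicate 3, with no deviation linked to GC content. It therefore does not show how the test behaves with that library included. Replicates differed by chi-square per degree of freedom of 124 to 4015, so none were merged for the tests. Counts were summed over a group only for description. The Poisson intervals, pooled binomial intervals and limits for 0 counts made from such sums leave out this spread. Alternatives used DESeq2 1.42.0, limma 3.58.1 and a loess correction (span 0.75) on mature-sequence GC content, known for 677 tested miRNAs.

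The text names all members, their other arms, the miR-449 miRNAs and the erythroid, myeloid, liver and epithelial markers. Leukocyte, muscle and neuron markers were listed too and are not described as sets. Some of these, such as miR-142-3p and miR-9-5p, were above miR-192-5p in sensitive libraries, and others were far below it. Other lists of related miRNAs are not reported here. For the most abundant member of each family it also names the 3 miRNAs with the most similar profile. Members and lists were chosen with earlier results of these data known.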

Additional observations from a re-analysis of the deposited data

How the results depend on the processing

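0 members were called under any of the 14 alternatives, and over 68 member values the lowest adjusted p was 0.185. With libraries left out in turn, the log2 fold change ran from -0.55 to 0.08 for miR-192-5p, from -0.65 to 0.02 for miR-34c-5p, from -0.50 to -0.01 for miR-194-5p, from -0.93 to -0.19 for miR-215-5p and from 0.32 to 0.72 for miR-34a-5p. The sign changes of miR-192-5p (to 0.077) and miR-34c-5p (to 0.018) came only without resistant replicate 3 in these fits. miR-34c-5p has no value in the GC-corrected fit. miR-34a-5p, miR-34c-5p and the low-count relatives depend on few counts, and miR-34a-3p, miR-34b-5p and miR-34c-3p were tested only with no filter.

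Over all miRNAs, 16 were called higher and 16 lower. Called higher were 9 with RLE factors, 27 with library totals, 115 with no filter, 8 with a minimum mean of 10 CPM, 98 with DESeq2 and 38 with the GC correction. Called lower were 47 with no filter, 6 with the minimum mean, 51 with DESeq2 and 33 with the GC correction. Library totals gave 16 lower, and moved the median log2 fold change of all tested miRNAs from -0.11 to 0.09. Leaving out 1 library gave 1 to 113 higher and 3 to 118 lower. miR-194-3p passed with DESeq2 (0.0123) and with no filter (0.0109).

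The replicate number as a block gave 8 higher and 15 lower, and miR-449c-5p and miR-200c-3p did not pass with it (adjusted p = 0.0929 and 0.108). Deviations of same-numbered libraries correlated at -0.06, 0.26 and 0.13. Sensitive replicates 2 and 3 correlated best with their own number, replicate 2 only narrowly (0.26 against 0.2 with resistant replicate 1). Sensitive replicate 1 correlated better with resistant replicate 3 (0.11) than with its own number. Resistant replicate 3 lay far from the other resistant libraries and shapes all these deviations, so the correlations cannot decide whether the numbers pair the libraries. The library names of both forms start with N1, N2 or N3, and the labels state no pairing. The main fit has no pairing, and the block is given as an alternative. With the block the SE fell for miR-34c-5p (0.58 to 0.43) and miR-215-5p (0.62 to 0.48). It rose for miR-34a-5p, miR-192-5p and miR-194-5p, and 0 members were called.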

Other observations

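Sensitive replicate 3 was low for several members and for erythroid and other miRNAs at once. miR-34c-5p was at 6.66 CPM there against 16.2 and 17.7 CPM in sensitive replicates 1 and 2, and miR-215-5p at 15.7 against 31.6 and 33.9 CPM. The erythroid miR-144-3p was at 107 against 276 and 303 CPM, and miR-451a at 191.8 against 280 and 343 CPM. The drop was not particular to erythroid miRNAs. miR-9-5p was at 2623 against 5055 and 6893 CPM, and the epithelial miR-375-3p at 50.1 against 98.2 and 101.7 CPM. miR-192-5p (1462 against 1554 and 1532 CPM) and miR-34a-5p (2.77 against 1.66 and 1.74 CPM) did not share this. The myeloid miR-223-5p was higher there, at 559 against 396 and 361 CPM. This library had 5660055 counts, the fewest of its group. These values were picked after they were seen and carry no test.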
